A study of Mus musculus with 4 samples.

Results

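The genes described here are the chemokines and their receptors: all genes whose updated platform symbol is Ccl, Cxcl, Cx3cl, Xcl, Ccr, Cxcr, Cx3cr or Xcr followed by a number and at most 1 letter. The array measured 46 of them among 16390 named genes, 29 ligands and 17 receptors, each through its brightest probe by mean spot intensity over the 4 arrays. The study sorted cells from the mouse small intestine by Dclk1, a kinase that marks tuft cells, and hybridised 1 array per group. The 4 groups were Dclk1- tumor (1 mouse aged 17 weeks), Dclk1+ tumor (7 mice aged over 16 weeks, pooled), Dclk1- normal (1 mouse aged 26 weeks) and Dclk1+ normal (2 mice aged 26 weeks, pooled). All mice were male and all carried Dclk1CreERT2/+, an inducible Cre named for the Dclk1 locus. The tumor mice also carried ApcMin/+, a truncating allele of Apc that starts intestinal adenomas. Per the labels' protocols the Dclk1+ tumor cells were sorted by GFP, and how the other groups were gated is not stated in those protocols. With 1 array per group there was no replicate, no test and no error between animals, so each difference below is one between 2 arrays.

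Chemokines are small secreted proteins that draw leukocytes along a gradient by binding G protein-coupled receptors on them. The names follow the spacing of the first conserved cysteines, as in CC, CXC and CX3C chemokines. In the small intestine, epithelial cells secrete Ccl25 and Ccl20, which attract lymphocytes and dendritic cells, while macrophages, neutrophils and stromal cells make most of the inflammatory CC and CXC ligands. Receptors such as Ccr2, Cxcr2 and Cx3cr1 sit mainly on leukocytes.

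Levels are given as spot intensity, the scanner's brightness of a spot on a linear scale with nothing subtracted. Above background means brighter than the blank spots' mean plus 2 SD. That limit was 25.7 and 24.4 on the tumor arrays (Dclk1- first, then Dclk1+) and 23.7 and 22.2 on the normal arrays. The arrays had 63.3% to 70.9% of their 23473 probes above background. Differences are on the log2 scale after background correction with an offset of 50 and quantile normalization, so that 1 is a 2-fold difference, and the offset compresses the differences of dim spots. Dclk1 itself read 32.6 and 63.2 in tumor and 171.9 and 457.5 in normal cells, again with Dclk1- first, and the 4 values of a gene keep this order throughout. Each pair's Dclk1+ sample was brighter. On the log2 scale it differed by 0.69 in the tumor pair and 1.41 in the normal pair. Among tuft cell markers above background, 12 of 15 were 2-fold or more brighter with Dclk1 in tumor and 14 of 16 in normal epithelium.

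Several ligand genes that differed between the samples are induced through NF-kB in other systems, so their promoters are shown beside the array values. RefSeq (GRCm38.p6) gave a promoter for 34 of the 46 genes. The letters GGG, then any 3 bases, then TTCC, a core of the NF-kB motif, were searched on both strands in the 250 bases before each start. They occurred before at least 1 start of 8 of these genes, 6 of them ligands, where 5.31% of all 27025 genes had such a start. The matching ligands were Cxcl1, Cxcl2, Cxcl3, Cxcl10, Ccl20 and Ccl9. Printed here are the last 110 bases before the start, with matches in capitals, for the neighbours Cxcl1 (chr5:90891135-90891244, plus strand), Cxcl2 (chr5:90903789-90903898, plus strand) and Cxcl3 (chr5:90785991-90786100, plus strand). They are set against 3 CC ligands that were 2-fold apart in the tumor pair, Ccl9 (chr11:83578637-83578746, minus strand), Ccl12 (chr11:82101735-82101844, plus strand) and Ccl8 (chr11:82115075-82115184, plus strand).
Cxcl1: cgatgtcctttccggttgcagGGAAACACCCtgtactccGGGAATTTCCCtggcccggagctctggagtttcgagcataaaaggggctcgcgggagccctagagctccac
Cxcl2: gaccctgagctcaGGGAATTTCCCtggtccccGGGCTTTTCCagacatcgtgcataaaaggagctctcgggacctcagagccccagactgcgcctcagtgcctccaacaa
Cxcl3: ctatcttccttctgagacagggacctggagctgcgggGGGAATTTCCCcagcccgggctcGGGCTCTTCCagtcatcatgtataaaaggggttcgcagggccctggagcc
Ccl9: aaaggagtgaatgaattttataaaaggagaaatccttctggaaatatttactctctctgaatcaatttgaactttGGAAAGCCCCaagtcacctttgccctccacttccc
Ccl12: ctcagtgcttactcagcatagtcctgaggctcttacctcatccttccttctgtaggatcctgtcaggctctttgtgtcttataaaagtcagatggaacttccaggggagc
Ccl8: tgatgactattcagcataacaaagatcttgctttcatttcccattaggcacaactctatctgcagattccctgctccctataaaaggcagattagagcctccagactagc
In each of Cxcl1, Cxcl2 and Cxcl3 the search found 3 matches, of which a pair overlapped in 1 palindromic stretch. Ccl9 held 1 match, and Ccl12 and Ccl8 held none in this window. A match describes the letters and is no measured binding.

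In tumors, the chemokine ligands Cxcl2, Ccl8, Ccl9 and Ccl12 lay at least 2-fold below their Dclk1- level in the Dclk1+ cells, and no ligand was 2-fold higher. The probe named Ccr4 was the 1 member 2-fold higher. Of 31 members above background in this pair 12.9% were lower, against 2.13% of all 12198 genes above background, and 3.23% were higher, against 1.76%. By sign alone, 23 of the 31 members were below 0, where 46.2% of all genes were, and their median was -0.22 against 0.01. Without the Ccr4 probe, and also with median scaling, no member was 2-fold higher, so the split of higher to lower was 1 to 4 with quantile normalization and 0 to 5 with median scaling. With an offset of 16, which compresses less, 9 of 31 members were lower, where all genes lower came to 4.63%, the added ones being Ccl2 (-1.46), Ccl24 (at the threshold), Ccl25 (-1.42), Ccl6 (-1.62) and Cx3cr1 (-1.60). These are bulk samples, so fewer cells of a type and less RNA per cell cannot be told apart.

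In normal epithelium, Ccl25, Ccl6, Cxcl11 and Ccl9 lay at least 2-fold below their Dclk1- level in Dclk1+ cells, and 0 members were 2-fold higher. That is 13.3% of the 30 members above background in this pair, against 5.92% of all 12845 genes that were lower and 5.66% that were higher. Ccl9 was thus lower in both pairs. By sign 16 of 30 members were below 0, against 45.9% of all genes. The members' median was -0.02 and that of all genes 0.01, so most members lay close to level on this scale. With the blank mean subtracted, 7 members were higher and 11 lower, where 20.0% and 19.8% of all genes were. With the authors' deposited values 8 and 11 of 31 were, against 22.4% and 15.4%, so the higher count lay near that of all genes in both settings.

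Tumor and normal were compared separately in Dclk1- and in Dclk1+ cells, and the difference between these comparisons was not tested. In Dclk1- cells 3 of 34 members, Cxcl2, Ccl8 and Ccl12, were at least 2-fold higher in tumor (8.82%, against 5.83% of 12341 genes) and 3, Ccl25, Cxcl11 and Ccl6, were lower (8.82%, against 5.24%). In Dclk1+ cells 0 of 28 members were 2-fold higher and 0 lower, against 4.27% and 4.19% of 12869 genes. By sign, 17 of 28 members were lower in tumor in Dclk1+ cells, where 56.7% of all genes were, and 16 of 34 in Dclk1- cells, where 55.5% were. With an offset of 16 Ccl9 (1.39) and Cxcl2 (1.19) were 2-fold higher in Dclk1+ tumor. The comparisons share arrays: the Dclk1- tumor array enters the tumor pair and the Dclk1- pair, so Cxcl2, Ccl8 and Ccl12 appear in both through the same array. Tumor and normal samples also differ in age, which cannot be told apart from histology.

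**Figure D1:**
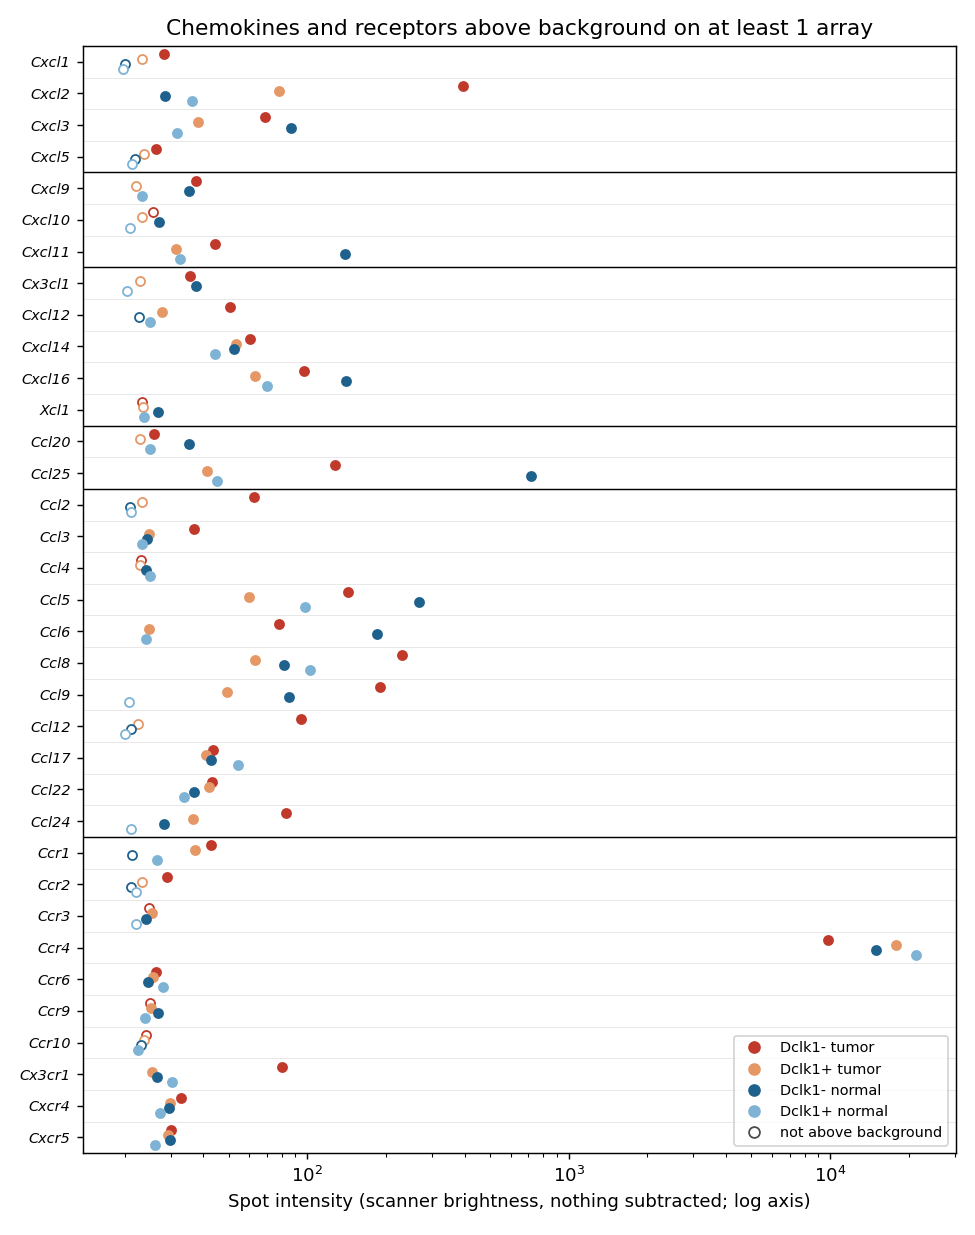
Spot intensity (log axis) of the 35 chemokine and receptor genes above background on at least 1 array, one row per gene and one point per array, open where the spot was not above background; lines separate the roles from neutrophil-attracting ligands at the top to receptors at the bottom. The Dclk1- tumor point stands to the right for Cxcl2 (394) and Ccl12 (94.6), and the Dclk1- normal point for Ccl25 (718) and Cxcl11 (139.8).

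**Figure D2:**
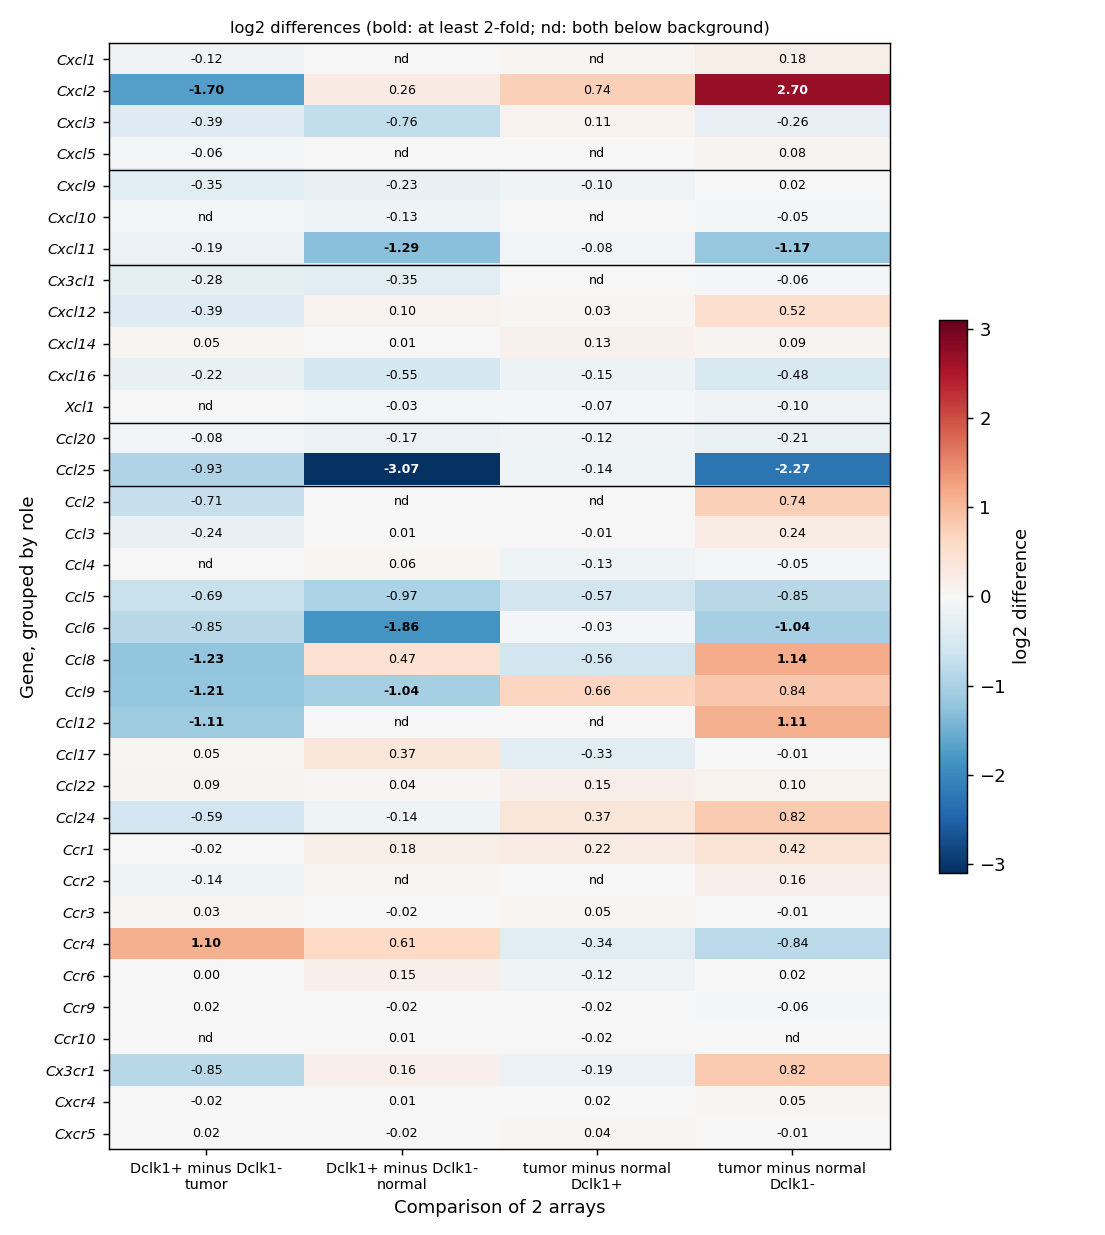
log2 differences of the same 35 genes in the 4 comparisons (colour and printed value; bold where at least 2-fold; nd where both spots were below background). The deepest blue is Ccl25 in normal epithelium (-3.07) and the deepest red is Cxcl2 for tumor against normal in Dclk1- cells (2.70), while the column for Dclk1+ cells holds no bold value.

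The neutrophil-attracting CXC ligands carry a glutamate-leucine-arginine motif and act on Cxcr2. Cxcl2 read 394 and 78.1 in tumor and 28.6 and 36.2 in normal cells. Both tumor samples were above both normal samples, and the Dclk1- tumor sample stood far above all. The log2 differences were -1.70 for Dclk1+ against Dclk1- in tumor and 2.70 for tumor against normal in Dclk1- cells, beside 0.26 in normal epithelium and 0.74 in Dclk1+ cells. Cxcl3, a close relative, did not follow that order: it read 69.1, 38.0, 86.6 and 31.6, which puts both Dclk1- samples above both Dclk1+ samples (-0.39 in tumor and -0.76 in normal). Cxcl1 read 28.4, 23.3, 20.0 and 19.7 and Cxcl5 read 26.4, 23.7, 21.9 and 21.4. Each was above background in Dclk1- tumor only, by at least 1.06-fold for Cxcl1 and 1.03-fold for Cxcl5 over Dclk1+ tumor. Cxcl15 was not above background on any array. Thus 4 of 5 genes of this class were above background in Dclk1- tumor and 2 of 5, Cxcl2 and Cxcl3, on each other array. Of all genes 66.6% were so in Dclk1- tumor and 70.6% to 73.7% on the other arrays.

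The CXC ligands induced by interferon attract activated T cells through Cxcr3. Cxcl11 read 44.3, 31.4, 139.8 and 32.5, with the Dclk1- normal sample above all others (-1.29 for Dclk1+ against Dclk1- in normal and -1.17 for tumor against normal in Dclk1- cells). RefSeq lists mouse Cxcl11 as a transcribed pseudogene in its reference strain, and the strain of these mice is not given in the labels. Cxcl9 read 37.6, 22.0, 35.4 and 23.2, so that both Dclk1- samples lay above both Dclk1+ samples. It was not above background in Dclk1+ tumor, which makes it at least 1.21-fold lower there than in Dclk1- tumor. Cxcl10 read 25.6, 23.3, 27.1 and 20.9 and was above background in Dclk1- normal only. Of 20 further genes that produce or carry the interferon signal, 19 were above background in the tumor pair and 0 were 2-fold apart. Of all genes 1.76% were higher and 2.13% lower in that pair. In Dclk1- cells 3 of 20 were at least 2-fold lower in tumor and 0 higher, against 5.24% and 5.83% of all genes. The 3 were Irf1 (-2.46, 1575 against 8213), a transcription factor of the interferon response, the signal transducer Stat2 (-2.29) and the checkpoint ligand Cd274 (-1.43). In Dclk1+ cells 4 of 20 were lower in tumor, the same 3 and the RNA sensor Ddx58 (-1.41), and Irf8 was higher (1.13). Of all genes 4.19% were lower and 4.27% higher there. In normal epithelium Irf8 (-1.80, 39.8 against 246.5) and Ifnar2 (-1.10) were lower in Dclk1+ cells and Tyk2 (1.06) was higher. These were 2 and 1 of 20 genes, against 5.92% and 5.66% of all genes.

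Ccl25, the small intestinal ligand of the gut-homing receptor Ccr9, had the largest difference of any member at the offset of 50. With an offset of 16, with the blank mean or local background subtracted and with the authors' deposited values, the difference of Cxcl2 between the Dclk1- samples was larger (3.81 against -3.78 at the offset of 16). Ccl25 read 128 and 41.2 in tumor and 718 and 45.0 in normal cells. Both Dclk1- samples were above both Dclk1+ samples, and the Dclk1- normal sample was the brightest by far. The log2 difference was -3.07 for Dclk1+ against Dclk1- in normal, -0.93 in tumor and -2.27 for tumor against normal in Dclk1- cells, while the Dclk1+ samples were close (-0.14). The 12 enterocyte markers on the array summed to 17906, 4239, 65218 and 13816 in spot intensity above the blanks, all 12 above background on every array. The 2 Dclk1- samples were thus highest for these markers, as they were for Ccl25; the part of enterocyte content in the Ccl25 values was not tested. Ccl20, which attracts Ccr6-bearing lymphocytes to lymphoid follicles, read 26.0, 22.9, 35.2 and 25.1, was highest in Dclk1- normal and was not above background in Dclk1+ tumor. Its differences at the offset of 50 were all under 2-fold (-0.08 in the tumor pair, -0.17 in the normal pair).

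Among the other CXC, CX3C and C ligands, 0 of 6 genes were 2-fold apart in any comparison at the offset of 50. With an offset of 16 Cxcl12 was 2-fold apart between the Dclk1- samples (1.12). Cx3cl1, the membrane-bound fractalkine, read 35.5, 22.9, 37.6 and 20.4. It was above background in both Dclk1- samples and in neither Dclk1+ sample, at least 1.17-fold lower in Dclk1+ cells in tumor and 1.23-fold lower in normal. Cxcl12, a stromal ligand of Cxcr4, read 50.4, 27.8, 22.7 and 25.0, highest in Dclk1- tumor and at least 1.41-fold higher there than in Dclk1- normal. The summed markers of fibroblasts and smooth muscle were also highest there: the 13 genes summed to 435, 194, 86 and 97 above the blanks, with 9, 9, 6 and 7 above background. The largest part in Dclk1- tumor came from Acta2 (216). In the tumor pair 0 of 10 genes were 2-fold apart, with a median of -0.12. In Dclk1+ cells the sum was higher in tumor, while Cxcl12 was level (0.03). The part of these cells in the Cxcl12 value was not tested, and the defining markers Des, Postn and Tagln were not above background on any array. Cxcl14, an epithelial ligand, was close to level at 60.1, 53.5, 52.6 and 44.4 (differences of 0.01 to 0.13). Xcl1, a lymphocyte ligand, read 23.2, 23.5, 26.8 and 23.8 and was above background in normal samples only, and Cxcl13 was above background nowhere.

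Cxcl16, a membrane-bound ligand of Cxcr6 that also takes up oxidised lipid, was the 1 member with several probes, and they disagreed. The brighter probe read 97.5, 63.3, 140.1 and 69.8, with both Dclk1- samples on top. The other read 175.5, 93.4, 35.5 and 24.0, with both tumor samples on top. For tumor against normal the probes gave -0.15 and 1.26 in Dclk1+ cells and -0.48 and 1.47 in Dclk1- cells, opposite in sign. For Dclk1+ against Dclk1- they had the same sign (-0.22 and -0.42 in tumor, -0.55 and -0.21 in normal).

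The inflammatory CC ligands were the largest class, with 13 of the 29 ligands. In the tumor pair 3 of the 10 above background were 2-fold or more dimmer with Dclk1. Among all ligands 4 of 22 were, and among all genes 2.13%. The median of these 10 was -0.70. Ccl8, a monocyte attractant, read 231, 63.2, 81.5 and 102. It was highest in Dclk1- tumor and lowest in Dclk1+ tumor (-1.23), whereas in normal epithelium the Dclk1+ sample was the brighter (0.47), and it was higher in tumor in Dclk1- cells (1.14). Ccl12, a ligand of Ccr2 on monocytes, read 94.6, 22.5, 21.1 and 20.0 and was above background in Dclk1- tumor only. It was at least 2.07-fold lower in Dclk1+ tumor. Ccl2, the main monocyte attractant, had the same pattern at 62.7, 23.2, 20.9 and 21.1, at least 1.59-fold lower in Dclk1+ tumor and as much lower in Dclk1- normal.

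Ccl9, a ligand of Ccr1 on myeloid cells, read 189.6, 49.4, 84.7 and 20.8. Each Dclk1- sample was brighter than its Dclk1+ partner, and Dclk1+ normal was not above background, at least 2.00-fold lower than Dclk1- normal. The log2 difference was -1.21 in tumor and -1.04 in normal. Ccl6, a close relative of Ccl9, read 77.9, 24.8, 184.7 and 24.1: again both Dclk1- samples were on top, but here the normal one was highest (-0.85 in tumor, -1.86 in normal and -1.04 for tumor against normal in Dclk1- cells). Ccl5, a T cell and eosinophil attractant, read 142.5, 59.7, 266 and 98.3 and was just under 2-fold in normal (-0.97) and further under it in tumor (-0.69). In the normal pair it passed 2-fold with median scaling (-1.13), 75th percentile scaling (-1.01) and an offset of 16 (-1.18), and with the blank mean subtracted or the authors' deposited values it did so in all 4 comparisons.

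Ccl24, an eosinophil attractant that acts on Ccr3, read 82.8, 36.4, 28.4 and 21.2, highest in Dclk1- tumor. Ccl3, made by macrophages, read 36.9, 24.8, 24.4 and 23.3, also highest in Dclk1- tumor. Ccl17 read 43.5, 40.8, 42.8 and 54.4 and Ccl22 read 43.0, 42.0, 36.8 and 33.8; both are ligands of Ccr4, and no pair of samples was 2-fold apart. Ccl4 was above background in the normal samples only, at 24.2 and 25.0, and Ccl7 and Ccl11 were above background on no array.

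In the tumor pair the summed markers of myeloid cells were lower in Dclk1+ cells, as 8 of 10 inflammatory CC ligands were. That fall lay mostly in few genes, among them C1qb (534 against 1857), C1qa (133 against 599) and Il1b (182 against 837). Of the macrophage and dendritic cell list 3 of 11 genes were 2-fold lower and 0 higher, with a median of -0.20. Of the neutrophil list 1 of 8 was lower and 0 higher, with a median of -0.30. Of all genes 2.13% were lower in this pair. In the normal pair these sums were higher in Dclk1+ cells, where 5 of 9 inflammatory CC ligands were above 0 and 4 below. Ccl9 (-1.04), Ccl6 (-1.86) and Ccl5 (-0.97) were lower there, while Ccl8 (0.47) and Ccl17 (0.37) were higher. The rise of the sums in the normal pair also lay mostly in single genes. The macrophage and dendritic cell list had 1 gene 2-fold higher, C1qb (1.32, 542 against 214), with 0 lower and a median of 0.24. The neutrophil list had 1, Il1b (1.63, 163 against 39.6), with 0 lower and a median of 0.02. The 13 macrophage and dendritic cell markers summed to 3000, 843, 475 and 837 above the blanks, with 11, 10, 8 and 8 above background; C1qa, a complement gene of macrophages, read 599, 133, 101 and 146, while Adgre1 and Flt3 were above background nowhere. Of 11 genes of this list above background on any array, 10 were brightest in Dclk1- tumor and Csf1r, the receptor of a macrophage growth factor, in Dclk1- normal (57.7, 52.2, 70.0 and 50.8). The 12 neutrophil markers summed to 1444, 422, 183 and 296, with 7, 8, 6 and 8 above background, and the defining Csf3r and Mpo were above background nowhere. Most of the Dclk1- tumor sum came from Il1b (837) and S100a8 (446), and Il1b is also among the NF-kB genes below. Of 10 neutrophil markers above background on any array, 7 were brightest in Dclk1- tumor. The 12 markers of all leukocytes summed to 2043, 477, 225 and 749, with 11, 9, 9 and 10 above background. Much of that sum came from Cd52 (831 in Dclk1- tumor) and Fcer1g (848 there). Ptprc, a gene of the leukocyte list, ran the other way at 37.9, 68.9, 26.4 and 120.5 (0.68 in tumor and 1.55 in normal). It was brightest in Dclk1+ normal, as 15 of the 16 tuft markers were, and from which cells its RNA came was not tested. Cd53 was brightest in Dclk1+ tumor. The summed level of Dclk1- tumor was highest for all 3 lists, as it was for Cxcl2, Ccl8, Ccl9, Ccl12 and Ccl2. T and NK cell markers ran otherwise: the 17 genes summed to 69, 63, 269 and 150, highest in Dclk1- normal, where Cxcl11, Ccl5 and Ccl6 were also highest. Of the 17, 6, 8, 13 and 10 were above background, and Cd3e, Cd5 and Prf1 were so nowhere. Much of the Dclk1- normal sum came from Cd8a (127) and Gzmb (91.9). Of 14 above background on any array, 9 were brightest in Dclk1- normal, while Cd247 was brightest in Dclk1+ normal (75.9 against 42.1). The part of any of these cells in the chemokine values was not tested.

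**Figure D3:**
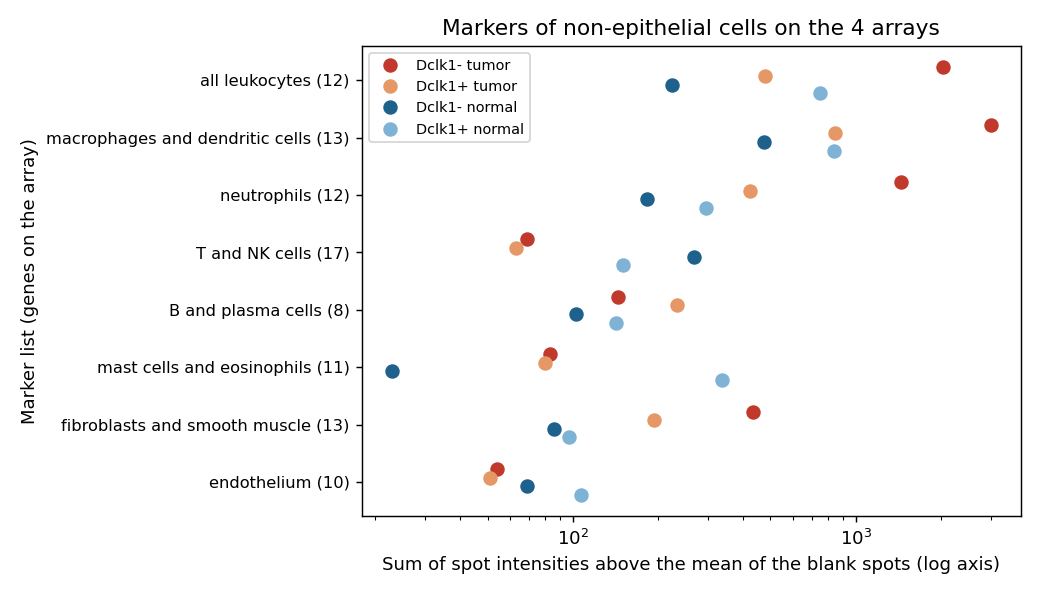
Sum over each marker list of the spot intensity above the mean of the blank spots (log axis), one point per array, with the number of genes on the array in brackets. Dclk1- tumor lies to the right for all leukocytes (2043), macrophages and dendritic cells (3000) and neutrophils (1444), and Dclk1- normal for T and NK cells (269).

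Many of these genes lie side by side, and neighbours did not share one pattern. RefSeq places 13 members on chromosome 11 and 9 on chromosome 5 besides Ccl24. On chromosome 11, in the order Ccl2, Ccl7, Ccl11, Ccl12 and Ccl8, the genes Ccl2, Ccl12 and Ccl8 were highest in Dclk1- tumor, while Ccl7 and Ccl11 between them were above background on no array. In the next group, in the order Ccl5, Ccl9, Ccl6, Ccl3 and Ccl4, Ccl9 and Ccl3 were highest in Dclk1- tumor, and Ccl5 and Ccl6 in Dclk1- normal. On chromosome 5 the neighbours Cxcl1 and Cxcl2 were highest in Dclk1- tumor, Cxcl3 in Dclk1- normal, and of Cxcl9, Cxcl10 and Cxcl11 the last was the 1 with a 2-fold difference. Whether probes of such close relatives also bind each other's RNA was not tested.

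**Figure D4:**
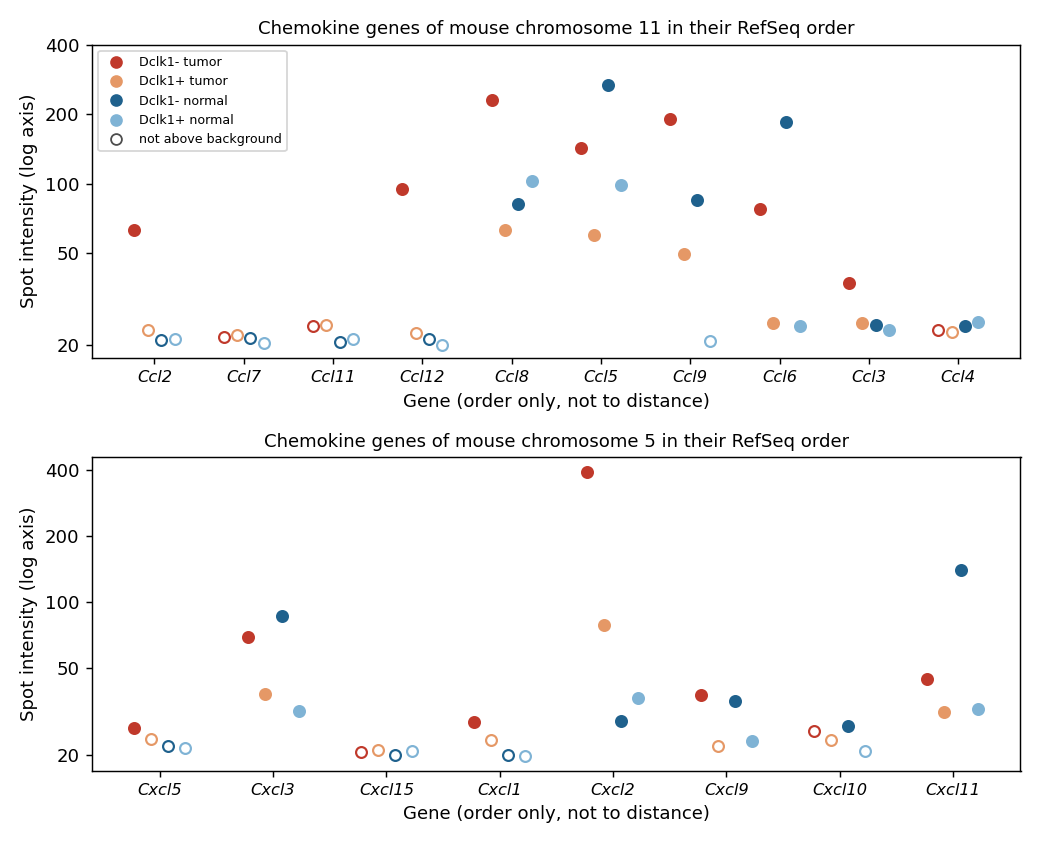
Spot intensity (log axis) of 10 CC ligands of chromosome 11 and 8 CXC ligands of chromosome 5 in their RefSeq order, one point per array, open where not above background; distances are not to scale. Dclk1- tumor stands out at Ccl2 (62.7), Ccl12 (94.6) and Ccl8 (231) but not at Ccl7 and Ccl11 between them, and at Cxcl2 (394) but not at Cxcl3 (69.1).

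Receptors, which mark the responding cells, were mostly at or below background. Of 17 receptors 7 were above background on no array: Ccr7, Ccr8, Cxcr1, Cxcr2, Cxcr3, Cxcr6 and Xcr1. Another 5 were above background on all 4 arrays, and 7, 8, 7 and 8 of 17 were above it on the single arrays. Of all genes 66.6%, 70.6%, 71.4% and 73.7% were above it there. Cx3cr1, the fractalkine receptor of gut macrophages, read 79.7, 25.4, 26.5 and 30.4, so that Dclk1- tumor stood alone (-0.85 for Dclk1+ against Dclk1- in tumor and 0.82 for tumor against normal in Dclk1- cells). Ccr1, a myeloid receptor of Ccl3, Ccl5, Ccl6 and Ccl9, read 42.7, 37.2, 21.4 and 26.7, with both tumor samples above both normal samples, at least 1.29-fold in Dclk1- cells. Ccr2, the monocyte receptor of Ccl2 and Ccl12, read 29.0, 23.2, 21.1 and 22.1 and was above background in Dclk1- tumor only, at least 1.07-fold above Dclk1+ tumor.

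The remaining receptors were close to the limit and within 0.15 of level wherever at least 1 array of the pair was above background. Cxcr4, the receptor of Cxcl12, read 32.9, 29.9, 29.6 and 27.2. Cxcr5, a follicular lymphocyte receptor, read 30.2, 29.3, 29.7 and 26.1. Ccr6 read 26.3, 25.6, 24.5 and 28.0 and the Ccl25 receptor Ccr9 read 25.0, 25.2, 26.8 and 24.0. None of these separated the samples. Ccr3 was above background in Dclk1+ tumor (25.4) and Dclk1- normal (24.1), and Ccr10 in Dclk1+ normal (22.4).

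The probe named Ccr4, after a receptor of helper T cells, stood apart from the rest. It read 9845, 17895, 14980 and 21306, brighter in each Dclk1+ sample (1.10 in tumor, 0.61 in normal) and each tumor sample dimmer than its normal counterpart (-0.34 in Dclk1+ and -0.84 in Dclk1- cells). Of the 17 T and NK cell markers, 5 were above background on all 4 arrays, among them Cd4, a marker of helper T cells, at 28.2, 26.5, 24.5 and 26.8, while Cd3e, Cd5 and Prf1 were above it on none. The platform table used here gives no accession for this probe, so which RNA it binds could not be checked. Without it 30 members entered the tumor pair, with 0 higher, 4 lower, 23 below 0 and a median of -0.23, and 4 of the other 16 receptors were above background on all arrays. The difference in tumor fell under 2-fold in 2 of 7 alternative settings.

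Of 22 ligand and receptor pairs with both genes on the array, both were above background for 8 and 7 pairs in tumor and 6 and 7 in normal cells, so that 10 pairs were both above it on at least 1 array and 12 on none. Those 12 included all 4 pairs of Cxcr2 and all 3 of Cxcr3, whose ligands Cxcl2 and Cxcl11 had 2-fold differences. Ccl25 and Ccr9 were both above background in all samples but Dclk1- tumor, and Ccl2 and Ccr2 in Dclk1- tumor only. Pairs with Ccr4 were the 2 above background on all arrays, through the doubtful probe.

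Atypical receptors, which bind chemokines without G protein signalling, and related attractants were measured on a further list of 22 genes. In tumor 1 of 17 above background was 2-fold higher and 1 lower in Dclk1+ cells, against 1.76% and 2.13% of all genes. In normal 1 of 17 was higher and 1 lower, against 5.66% and 5.92% of all genes. Ackr3, a scavenger of Cxcl12, read 123, 97.9, 23.2 and 20.6. It was above background in both tumor samples and in neither normal sample, at least 2.50-fold higher in Dclk1- tumor than in Dclk1- normal. Pf4, a platelet CXC chemokine also made by macrophages, read 629, 123, 30.4 and 38.2. It was highest in Dclk1- tumor (-1.87 for Dclk1+ against Dclk1- in tumor and 3.33 for tumor against normal in Dclk1- cells), the order also seen for Cxcl2.

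Genes that carry the receptor signal inside the cell were measured through 41 genes. Of 38 above background in tumor, 4 were 2-fold or more higher with Dclk1 and 2 lower, against 1.76% and 2.13% of all genes. In normal 9 of 39 were higher and 2 lower, against 5.66% and 5.92%. The higher ones in both pairs were the phospholipase Plcb2 (3.97 and 4.57), the GTPase Rac2 (2.88 and 5.71) and the regulators Rgs2 (1.33 and 3.92) and Rgs13 (at least 10.7-fold in tumor). Of these Plcb2 and Rgs13 also belong to the tuft marker list. Rac2 read 48.6, 447, 26.7 and 3056 and Rgs2 read 516, 1028, 465 and 6611. Both were brightest in Dclk1+ normal, as 15 of the 16 tuft markers were. The part of tuft cell content in these counts was not tested. In normal epithelium the G protein subunit Gnai2 (2.85), the kinase subunit Pik3cg (2.55), Vav1 (1.86), Akt1 (1.71) and Was (1.66) were higher too. On the other side, Rgs1, a brake on chemokine receptors in leukocytes, was lower in Dclk1+ tumor cells (-1.32, 129 against 443), as was Gnai3 (-1.53). In normal epithelium Plcb3 (-2.45) and Gnb1 (-1.04) were lower. For tumor against normal in Dclk1+ cells, 0 of 39 were higher and 5 lower, against 4.27% and 4.19% of all genes. The 5 were Rgs2, Rac2, Gnai2, Pik3cg and Was.

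Of 37 genes around NF-kB, through which many chemokines are induced, 31 were above background in the tumor pair. Of these 0 were 2-fold higher in Dclk1+ cells and 1 was lower, against 1.76% and 2.13% of all genes. In normal 1 of 34 was higher and 0 lower, against 5.66% and 5.92%. That gene was in each case Il1b, an inflammatory cytokine, which read 837, 182, 39.6 and 163 (-1.83 in tumor and 1.63 in normal). Il1b was also the 1 gene of 33 that was higher in tumor in Dclk1- cells (3.57), where the inhibitors Nfkbia (-1.13) and Tnip1 (-1.23) were lower. Of all genes 5.83% were higher and 5.24% lower there.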

How the data were processed

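Spot and local background intensity were deposited as median brightness at 635 nm, joined from scans at 3 gains by straight lines, per the file headers. The authors' series table holds intensity values that are, set against the scanner values, a straight line of each array's spot intensity, with column medians of 24.99 and 25.0 for tumor and 25.01 and 25.0 for normal cells (Dclk1- first); dim spots are empty there, and its making is not stated. Flagged spots, 4 of them probe spots, were set to missing first. The other spot intensities, blanks and controls included, went through normexp (offset 50, limma 3.58.1, R 4.3.3). Then 144 control spots and 2736 blanks were removed, and arrays were quantile normalized on the log2 scale. The local background was not subtracted. The steps were tested on simulated data. Symbols of 16631 probes came from the platform table and were updated with GRCm38.p6 RefSeq: 12622 were current and 3947 were synonyms of 1 gene. Promoter sequences are RefSeq's, matched by symbol.

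A gene entered a comparison if above background on at least 1 of its 2 arrays, and a call was a difference of at least 2-fold. Where 1 array was not above background, the bound "at least" sets the brighter value against the higher of the dim spot and the lowest spot above background there. Each member above background was named, with differences for those 2-fold apart and the brightest of each role; other genes came from set lists. The members and lists were chosen with earlier results of these data known. Alternatives were another offset, subtraction of the blank mean or local background, median and 75th percentile scaling, the mean of all probes, the authors' values, a 3 SD limit and a 4-fold threshold. The number of arrays limits the precision.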

Additional observations from a re-analysis of the deposited data

Results flagged for a closer look

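Cxcl2 and Ccl8 differed in opposite directions in tumor and normal epithelium, each above background on all 4 arrays. For Cxcl2, Dclk1+ minus Dclk1- was -1.70 in tumor and 0.26 in normal, a difference of -1.96 on the log2 scale. For Ccl8 it was -1.23 and 0.47, a difference of -1.70. Both normal values were under 2-fold, and with 1 array per group these differences were not tested.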

How the results depend on the processing

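No paired analysis was possible because each group has 1 array, and for the same reason no replicate could be left out. The main counts of members higher and lower were 1 and 4 in the tumor pair, 0 and 4 in the normal pair, 0 and 0 for tumor against normal in Dclk1+ cells and 3 and 3 in Dclk1- cells. All 15 called differences kept their direction in 7 of 7 alternatives that gave a value; those under 2-fold in any were Ccr4 in tumor (past it in 5), Ccl9 in normal (6) and Ccl6 between Dclk1- samples (6). In the same order, the counts were 0 and 18, 5 and 7, 3 and 4, and 12 and 5 with local background subtracted, where 16.1% to 20.6% of all genes were called in each direction. They were 7 and 11 in the normal pair, 5 and 8, and 13 and 8 with the blank mean subtracted, where 19 were lower in the tumor pair; of all genes 13.9% to 21.9% were called. The authors' deposited values gave 2 and 16, 8 and 11, 4 and 9, and 12 and 8, where the shares of all genes were 17.5% and 10.8%, 22.4% and 15.4%, 13.0% and 26.0%, and 14.1% and 28.1%. An offset of 16 gave 9 lower in the tumor pair and 2 higher in Dclk1+ tumor and 8 higher in Dclk1- tumor than in their normal counterparts, where 4.63%, 7.39% and 9.38% of all genes were. Median scaling, and leaving out the Ccr4 probe (chosen after seeing the data), gave 0 higher in the tumor pair. At 4-fold the tumor pair had 0 and 0, the normal pair 1 lower, and Dclk1- cells 1 and 1. Which setting is nearer the RNA level was not tested. Against medians of all genes between -0.03 and 0.01 in the main setting, the authors' values gave 0.33 in the tumor pair, 0.24 in the normal pair, and -0.37 (Dclk1+) and -0.45 (Dclk1-) between tumor and normal; 75th percentile scaling gave 0.13 and 0.14 in the tumor and normal pairs.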

Other observations

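Other attractants on the related list had orders of their own. Ltb4r1, a receptor for the lipid attractant leukotriene B4, read 92.8 and 54.6 in tumor and 571 and 95.9 in normal cells, Dclk1- first, with log2 differences of -1.98 for the normal pair and -2.29 for tumor against normal in Dclk1- cells. Cmtm8, of the chemokine-like factor family, read 66.6 and 166 in tumor and 104 and 262 in normal cells, higher with Dclk1 in both pairs (1.23 and 1.30). Mif, a cytokine that binds Cxcr2 and Cxcr4, was higher in tumor in Dclk1+ cells (1.22) and in Dclk1- cells (1.59).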
